A study of Mus musculus with 8 samples.

Results

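Metabotropic and monoamine receptor genes, 9 in all, that serve cortical neuromodulation were followed: *Grm2*, *Grm3*, *Grm5* and *Grm7* for metabotropic glutamate receptors, *Chrm1* and *Chrm3* for muscarinic acetylcholine receptors, *Htr2a* and *Htr2c* for serotonin receptors, and *Adrb1* for the β1 adrenergic receptor. They were chosen by gene symbol, with earlier results of these data known, and joined to the values per mouse by transcript identifier. All 9 of 9 were found among the 10588 transcripts tested, of 28662 in the deposited table. The series compared the right cerebral cortex of C57BL/6 mice, 4 bigenic and 4 nontransgenic, by sequencing of poly(A)+ RNA. Bigenic mice carried Camk2a-tTa and ΔNLS-hTDP-43, a human TDP-43 whose nuclear localization signal is disabled so that it gathers in the cytoplasm. The Camk2α promoter places the transactivator mainly in excitatory neurons of the forebrain, and doxycycline holds the human gene silent. The mice came off doxycycline when 28 days old, and their RNA was taken 10 days later. Nontransgenic mice carried neither transgene and kept the same diet timeline, so effects of the transactivator and of human TDP-43 cannot be told apart. Each group had 3 male mice. The mice are called A to D (bigenic) and E to H (nontransgenic) in the order of the deposited columns.

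All 9 receptors span the membrane and signal through G proteins, so they change how a neuron responds to fast transmission rather than carrying it. *Grm5*, *Chrm1*, *Chrm3*, *Htr2a* and *Htr2c* couple to Gq, which activates phospholipase C. *Grm2*, *Grm3* and *Grm7* couple to Gi/o and dampen transmitter release and adenylyl cyclase, while *Adrb1* couples to Gs and stimulates adenylyl cyclase. In cortex these receptors set the response to glutamate spilling from synapses and to acetylcholine, serotonin and noradrenaline from long-range fibres.

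Totals per mouse were 20.1 M to 22.0 M normalized counts in bigenic mice and 20.4 M to 21.2 M in nontransgenic mice. A normalized count is a whole number that the authors obtained by scaling the reads of each mouse. From the steps between low values, the reads on genes were estimated at 10.63 M (mouse B) to 31.93 M (mouse D), and a value of a receptor rested on between 136 and 8033 reads. Transcripts were tested where they reached 10 RPM, or 201 to 220 normalized counts, in at least 1 mouse, and the 9 receptors did so in every mouse. Mouse *Tardbp*, which encodes the endogenous TDP-43, was at 4908 to 5502 normalized counts in bigenic and 6116 to 7116 in nontransgenic mice, with no overlap. The neuronal markers tested, including the cortical genes *Slc17a7* and *Tbr1*, were present in every mouse and summed to 121518 to 159111 normalized counts.

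Of the 9 receptors, 6 were lower in bigenic mice (*Grm3*, *Grm7*, *Chrm3*, *Htr2a*, *Htr2c* and *Adrb1*) and 2 were higher (*Grm2* and *Chrm1*). *Grm5* did not pass the threshold of 0.05 on the limma adjusted p-value. The median log2 fold change of the 9 was −0.47, against 0.03 over all transcripts tested. Because the 9 were chosen with earlier results of these data known, this median and the counts here describe only these genes. Over all transcripts, 35.9% passed, 20.5% higher and 15.4% lower. The groups did not overlap for 8 of the 9, all but *Htr2c*, and for 39.0% of all transcripts. In bulk tissue, fewer cells of a type and less RNA per cell cannot be told apart.

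**Figure D1:**
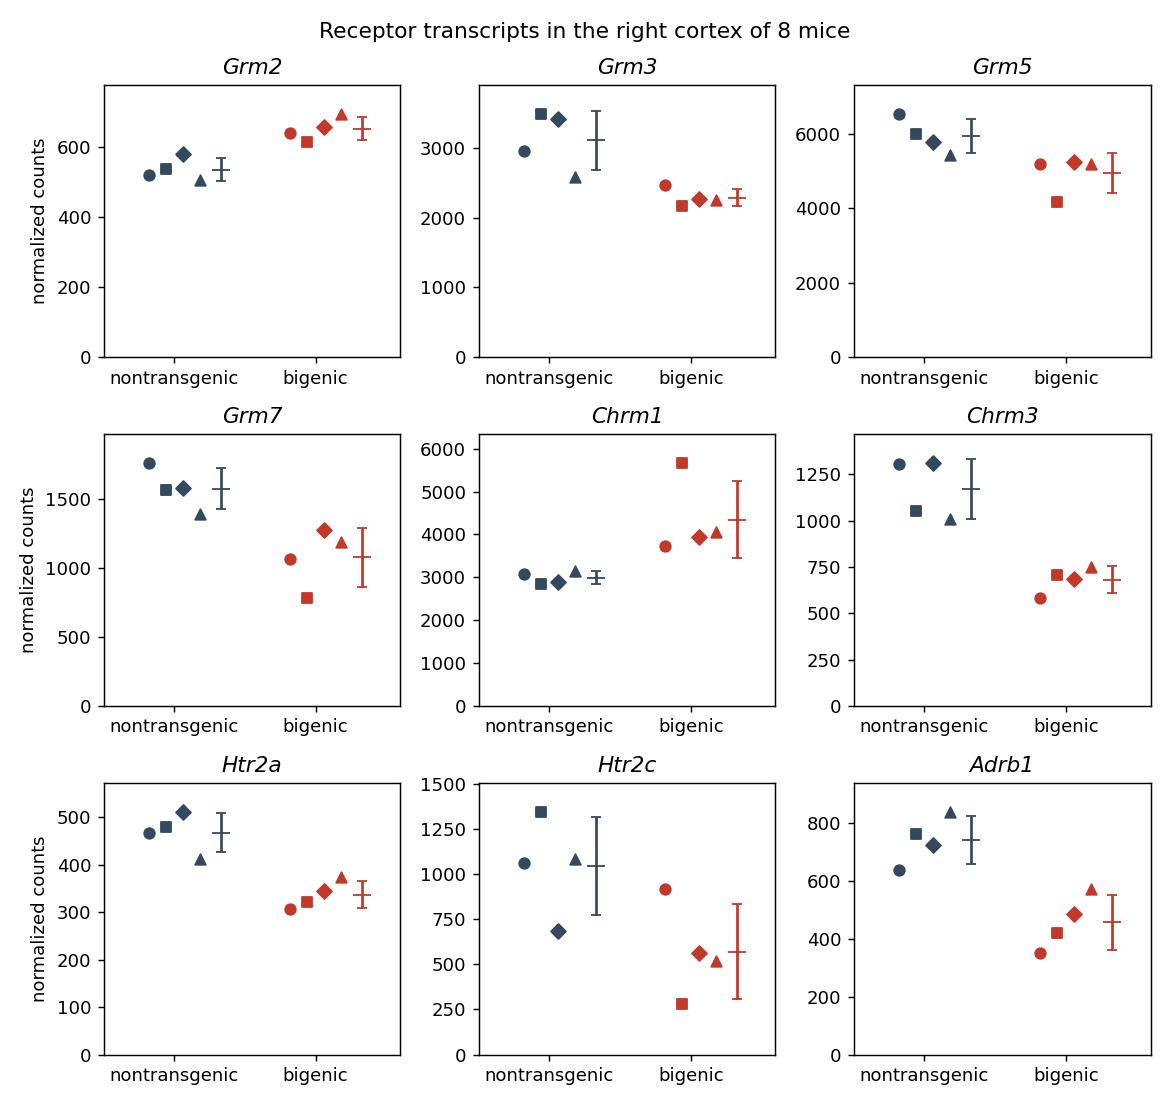
Normalized counts (vertical axes, starting at 0) of each of the 9 receptor genes in the 4 bigenic and 4 nontransgenic mice, 1 point per mouse (circle, square, diamond and triangle for A to D or E to H) with the group mean and SD. The groups are separated for every gene but *Htr2c*, where bigenic mouse A (916) lies above nontransgenic mouse G (685).

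Among the metabotropic glutamate receptors, *Grm2* was higher in bigenic mice while *Grm3* and *Grm7* were lower. *Grm2* and *Grm3* form group II, which senses glutamate near the synapse, *Grm2* on nerve terminals and *Grm3* also on astrocytes. *Grm2* (uc012gzy.1, mm9 chr9:106546868-106558440, minus strand) was at 642, 616, 659 and 695 normalized counts in bigenic mice A to D and at 520, 537, 581 and 506 in nontransgenic mice E to H. Every bigenic mouse was above every nontransgenic mouse, and the means were 653 ± 33.1 and 536 ± 32.6 (SD, n = 4). The log2 fold change was 0.28 (SE 0.08, limma adjusted p-value 0.0198), a rise of 21.8%. This call was lost without mouse D (adjusted p = 0.0594), E (0.0587) or F (0.0538).

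*Grm3* (uc008wll.1, mm9 chr5:9485236-9725352, minus strand) was at 2467, 2171, 2276 and 2253 normalized counts in the bigenic and 2957, 3493, 3424 and 2588 in the nontransgenic mice. The groups did not overlap, with bigenic mice close together and nontransgenic mice more widely spread. The means were 2292 ± 125 and 3116 ± 425 (SD, n = 4), and the log2 fold change was −0.43 (SE 0.10, limma adjusted p-value 0.00959). Within a mouse the log2 ratio of *Grm2* to *Grm3* was −1.94, −1.82, −1.79 and −1.70 in bigenic mice and −2.51, −2.70, −2.56 and −2.35 in nontransgenic mice. This ratio does not depend on the scaling of a mouse. It was on average 1.65-fold higher in bigenic mice. That its groups did not overlap follows from the opposite separation of *Grm2* and *Grm3*, so it is no further result.

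*Grm7* (uc009ddt.1, mm9 chr6:110595575-111517224, plus strand) is a group III receptor that sits in the presynaptic active zone and restrains release. It was at 1060, 778, 1272 and 1189 normalized counts in bigenic and at 1759, 1561, 1580 and 1391 in nontransgenic mice. Mouse B was the lowest of the bigenic mice, and all 4 lay below the lowest nontransgenic mouse. The log2 fold change was −0.57 (SE 0.15, limma adjusted p-value 0.0141). Exons of *Grm7* share 130 bases with a non-member gene on the opposite strand, and no source used here says whether reads were counted by strand.

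*Grm5* (uc009ifs.2, mm9 chr7:94750952-95283417, plus strand), the main Gq-coupled metabotropic receptor of the forebrain, sits beside the postsynaptic density. Its values were 5191, 4165, 5265 and 5206 normalized counts in bigenic and 6543, 5996, 5795 and 5441 in nontransgenic mice. Every bigenic value was below every nontransgenic one, but mouse B was far below the other bigenic mice and the limma adjusted p-value was 0.0549 (log2 fold change −0.27, SE 0.10). Without mouse B the difference was smaller, at −0.18, and its adjusted p-value was 0.0443.

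The muscarinic pair moved in opposite directions, *Chrm1* up and *Chrm3* down. Both receptors couple to Gq and receive acetylcholine from the basal forebrain, and *Chrm1* is the main muscarinic receptor of cortical pyramidal cells. *Chrm1* (uc008gmf.2, mm9 chr19:8738495-8758077, plus strand) was at 3730, 5667, 3937 and 4045 normalized counts in the bigenic and 3067, 2841, 2894 and 3153 in the nontransgenic mice. Mouse B was well above the other bigenic mice, and all 4 were above every nontransgenic mouse. The means were 4345 ± 891 and 2989 ± 146 (SD, n = 4), with a log2 fold change of 0.52 (SE 0.12, limma adjusted p-value 0.00991). Without mouse B the log2 fold change was 0.39, with an adjusted p-value of 0.000565. Exons of *Chrm1* share 329 bases with a copy of the 7SK RNA gene on the opposite strand.

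*Chrm3* (uc007plb.1, mm9 chr13:9876381-9878329, minus strand, annotated as 1 exon) was at 580, 705, 683 and 752 normalized counts in bigenic and at 1308, 1051, 1312 and 1010 in nontransgenic mice. The highest bigenic value was well under the lowest nontransgenic value. The means were 680 ± 72.6 and 1170 ± 162 (SD, n = 4). Its log2 fold change of −0.78 (SE 0.12) had the smallest limma adjusted p-value of the 9 receptors, 0.000999. The log2 ratio of *Chrm1* to *Chrm3* was 2.69, 3.01, 2.53 and 2.43 in the bigenic and 1.23, 1.43, 1.14 and 1.64 in the nontransgenic mice. It was on average 2.46-fold higher in bigenic mice. Its lack of overlap likewise follows from the opposite separation of *Chrm1* and *Chrm3*.

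**Figure D2:**
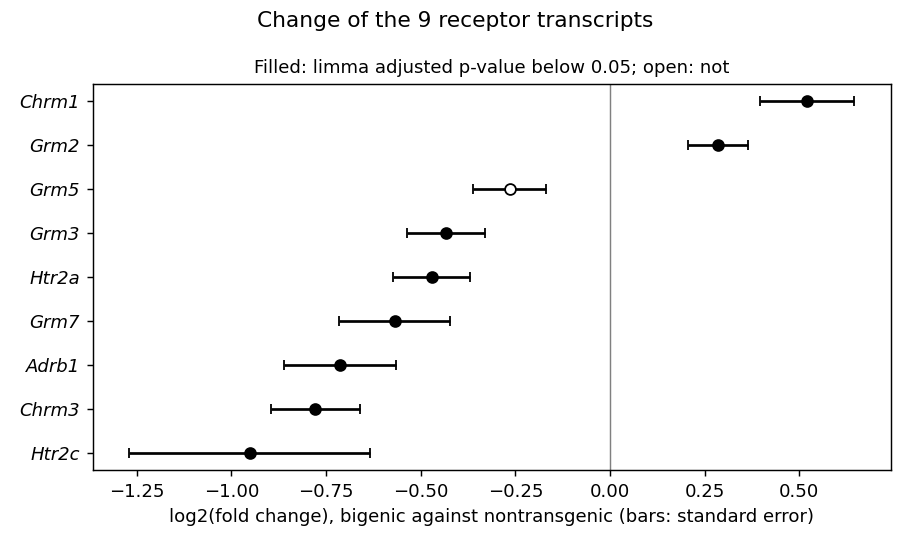
Log2 fold change (horizontal axis, bigenic against nontransgenic) of each receptor gene with its standard error, from limma over all transcripts tested. *Grm2* (0.28) and *Chrm1* (0.52) lie to the right of 0 and the other 7 to the left, from *Grm5* (−0.27) to *Htr2c* (−0.95).

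Sequences are shown for a gene that rose and a gene that fell, to let their start regions be read side by side. The 250 bases before the RefSeq start (build GRCm38.p6, minus strand, written 5′ to 3′) are at chr9:106656110-106656359 for *Grm2* and chr13:10360804-10361053 for *Chrm3*. These positions are on another build than the mm9 positions above, so distances between them cannot be read off. The mm9 span of *Chrm3* is also only 1 exon, and its place relative to this window was not examined. Capitals mark the GC box GGGCGG, the core recognised by Sp1-type factors, searched on both strands.
Grm2: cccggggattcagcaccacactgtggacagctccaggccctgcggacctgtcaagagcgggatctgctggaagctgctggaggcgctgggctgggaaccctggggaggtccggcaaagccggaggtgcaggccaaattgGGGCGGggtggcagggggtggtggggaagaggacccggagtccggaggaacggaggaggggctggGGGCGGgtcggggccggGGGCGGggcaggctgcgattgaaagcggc
Chrm3: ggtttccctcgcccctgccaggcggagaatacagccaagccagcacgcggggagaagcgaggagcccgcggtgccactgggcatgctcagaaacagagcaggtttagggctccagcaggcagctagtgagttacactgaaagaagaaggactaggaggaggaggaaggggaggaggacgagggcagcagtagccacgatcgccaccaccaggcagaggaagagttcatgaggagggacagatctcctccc
The *Grm2* window holds 3 GC boxes and the *Chrm3* window holds 0. Windows were found for 7 of the 9 receptors, *Chrm1* and *Grm5* having no entry in the table used. Receptors were counted by gene, *Grm7* having more than 1 window, and the background by window, so the shares are not in the same unit. A GC box was in 5 of the 7 (*Adrb1*, *Grm2*, *Grm3*, *Grm7* and *Htr2a*) against 32.7% of 32851 windows of the same length. It was in *Grm2*, the only receptor with a window that rose, and in 4 receptors that fell. With 1 risen gene, its presence cannot be compared between the directions. Other motifs were also searched on both strands. The CRE core TGACGT was in 0 of the 7 receptors, against 6.5% of all windows. For the E box CACGTG the values were 0 of 7 and 6.0%, and for the TATA box TATAAA they were 0 of 7 and 12.4%.

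TDP-43 binds runs of UG in RNA, so runs of at least 6 TG units were counted on the sense strand of each annotated mm9 gene span. A run was present in 7 of the 9 receptors, the exceptions being *Adrb1* (a span of 2491 bases) and *Chrm3*, whose annotated span is 1 exon of 1949 bases, so that the rest of the *Chrm3* gene was not searched, and in 73.7% of 10246 tested genes found in the annotation. Numbers of runs were 1 in *Grm2*, 1 in *Chrm1*, 22 in *Grm3*, 35 in *Grm5*, 87 in *Grm7*, 9 in *Htr2a* and 12 in *Htr2c*. Among the 3417 tested genes that span 50 kb or more, 99.4% held a run, with a median of 9.89 per 100 kb. Receptors of that span had 9.16 (*Grm3*), 6.57 (*Grm5*), 9.44 (*Grm7*), 13.6 (*Htr2a*) and 5.11 (*Htr2c*) per 100 kb. Only *Htr2a* was above the median. The run in *Chrm1*, of 6 units, lies in an exon. The longest runs of a gene that rose and of one that fell are printed here with their flanks. Both lie in introns, and capitals mark the TG run.
Grm2, mm9 chr9:106554659-106554724, minus strand: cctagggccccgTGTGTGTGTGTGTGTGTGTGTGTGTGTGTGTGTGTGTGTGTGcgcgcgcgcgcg
Htr2a, mm9 chr14:75046770-75046841, plus strand: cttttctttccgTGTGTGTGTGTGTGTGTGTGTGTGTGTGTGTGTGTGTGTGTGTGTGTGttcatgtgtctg
The run in *Grm2* has 21 units and that in *Htr2a* has 24. A run of letters is a description of the gene and binding was not analysed here.

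Both serotonin receptors were lower in bigenic mice. *Htr2a* (uc007uqc.1, mm9 chr14:75040647-75106666, plus strand) is concentrated on dendrites of deep-layer pyramidal cells. It was at 307, 321, 345 and 373 normalized counts in bigenic and at 467, 479, 511 and 411 in nontransgenic mice. The groups did not overlap and the spread was small in both. The log2 fold change was −0.47 (SE 0.10, limma adjusted p-value 0.00593).

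*Htr2c* (uc009und.2, mm9 chrX:143397056-143631820, plus strand) had the largest fitted fall of the 9 receptors and the widest spread. Its values were 916, 283, 561 and 518 normalized counts in bigenic and 1061, 1344, 685 and 1084 in nontransgenic mice. Mouse A lay within the nontransgenic range, and the highest bigenic value was 3.24 times the lowest. The log2 fold change was −0.95 (SE 0.32, limma adjusted p-value 0.0413), a fall to 0.517 of the nontransgenic level. Without mouse A it was −1.22 (adjusted p = 0.0120) and without mouse B −0.66 (0.0376). The call was lost without mouse C (0.0598), D (0.0751), E (0.0942), F (0.116) or H (0.0857), with no filter on low values (0.0524) and with every mouse rescaled to the same total (0.0527).

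*Htr2c* is also strongly expressed by choroid plexus epithelium and by striatal neurons, tissues that border the cortex in a dissection. Of 15 choroid plexus markers 6 were tested. *Ttr* and *Enpp2* reached 10 RPM in every mouse, and the other 4 did so only in bigenic mice, so that they were tested only because they were high there. *Ttr*, which encodes transthyretin, was at 18520, 7741, 16795 and 11356 normalized counts in bigenic mice and at 801, 236, 835 and 1023 in nontransgenic mice (log2 fold change 4.34, limma adjusted p-value 0.000109), and *Enpp2* (0.34, adjusted p = 0.128) did not pass the test. The log2 fold changes of the 4 markers admitted by their bigenic values, given as a description, were 2.71 for *F5*, 2.25 for *Kl*, 2.40 for *Clic6* and 1.93 for *Prlr*. The 6 markers summed to 14275 to 29482 normalized counts in bigenic and 6591 to 8221 in nontransgenic mice. The sum includes the 4 markers admitted by their bigenic values, so its difference between the groups is partly set by the filter. Between the groups *Htr2c* was lower where this sum was higher. Among the bigenic mice both *Htr2c* and the sum fell in the order A, C, D, B, whereas among the nontransgenic mice *Htr2c* fell in the order F, H, E, G and the sum in the reverse order.

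Of 8 striatal markers tested, 1 was lower (*Penk*, −1.38 on the log2 scale, limma adjusted p-value 0.0426) and 0 were higher. Over all transcripts tested, 15.4% were lower and 20.5% higher. Of the markers not passing, *Drd2* and *Adora2a* had the largest SE, 0.92 and 0.86, so not passing does not show that they were stable. The *Penk* groups overlapped, with bigenic mouse A at 1575 and nontransgenic mouse H at 1118 normalized counts. The 8 summed to 13519 normalized counts in mouse A, 5658 to 5823 in the other bigenic mice and 6688 to 9987 in the nontransgenic mice. Mouse A was highest of the bigenic mice, and mouse F of the nontransgenic mice, both in *Htr2c* and in this sum. No tested marker of either list was at 0, and the part of both tissues in the *Htr2c* result was not tested. With mice A and B left out together, a choice made after seeing the data, the *Htr2c* log2 fold change was −0.91 (adjusted p = 0.00561).

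**Figure D3:**
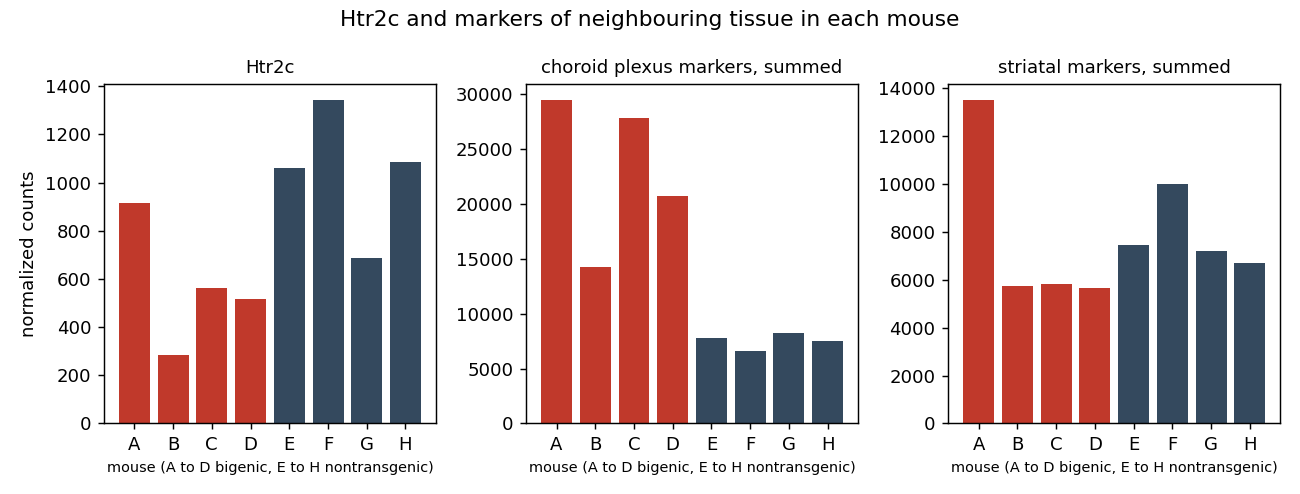
*Htr2c* and the summed choroid plexus and striatal markers in each of the 8 mice, in normalized counts. Mouse A is highest of the bigenic mice in *Htr2c* (916) and in the striatal sum (13519). Every bigenic mouse is above every nontransgenic mouse in the choroid plexus sum, which includes 4 markers tested only because they were high in bigenic mice.

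*Adrb1* (uc008hze.2, mm9 chr19:56796862-56799352, plus strand) carries much of the excitatory action of noradrenaline in cortex. It was at 350, 418, 486 and 571 normalized counts in bigenic and at 638, 762, 723 and 838 in nontransgenic mice. All 4 bigenic mice were below the lowest nontransgenic mouse. The means were 456 ± 94.5 and 740 ± 83.2 (SD, n = 4), and the log2 fold change was −0.71 (SE 0.15, limma adjusted p-value 0.00512).

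The other receptors of the same families also moved in both directions. Of 34 listed, 16 were tested, and 4 were higher and 5 lower, with a median log2 fold change of −0.20. Over all transcripts tested, 20.5% were higher and 15.4% lower. Only 10 of the 16 reached 10 RPM in every mouse, and *Chrm2*, *Grm4* and *Drd2* reached it in 1 group only, so these counts are partly set by the filter. Beside *Chrm1* and *Chrm3*, the muscarinic receptor *Chrm4* rose by 0.46 on the log2 scale (limma adjusted p-value 0.0300). *Chrm2* had a log2 fold change of 0.53 (adjusted p = 0.0416), but it was tested only through its bigenic values and its groups overlapped, with mouse A at 143 and mouse G at 160 normalized counts. Of the group III glutamate receptors, *Grm8* was lower as *Grm7* was. *Grm8* was at 262, 254, 300 and 285 normalized counts in bigenic and 450, 431, 434 and 409 in nontransgenic mice, with no overlap and a log2 fold change of −0.65 (SE 0.09, adjusted p = 0.000665), and *Grm4*, tested only through its nontransgenic values, was at −0.62 (adjusted p = 0.0247).

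Of 5 serotonin receptors tested, *Htr2a* and *Htr2c* included, 4 were lower and 1 was higher, against 15.4% and 20.5% of all transcripts tested. The exception was *Htr5a* (uc008wtt.1), a Gi/o-coupled receptor, at 1147, 1036, 1187 and 1201 normalized counts in bigenic and 558, 495, 552 and 535 in nontransgenic mice. Its groups were far apart, with a log2 fold change of 1.09 (SE 0.08, limma adjusted p-value 2.5e-05). *Htr1a*, the inhibitory serotonin receptor, fell by 0.65 and *Htr7*, coupled to Gs, by 0.63 on the log2 scale. Of 6 adrenergic receptors tested, *Adrb1* and *Adra2a* (−0.57) were lower and 4 did not pass the test, while 35.9% of all transcripts passed. Neither of the 2 dopamine receptors tested passed, and the 1 histamine receptor tested, *Hrh3*, rose by 0.42.

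Downstream of the receptors, most of the Gq effectors tested were lower in bigenic mice. Of 17 effector transcripts tested from 16 genes, 10 were lower and 1 was higher, with a median log2 fold change of −0.39. Over all transcripts tested, 15.4% were lower and 20.5% higher. *Prkcb*, a protein kinase C, was at 19071, 18323, 21671 and 20034 normalized counts in bigenic mice and at 43301, 37560, 41535 and 35431 in nontransgenic mice, with the groups far apart (log2 fold change −0.99, limma adjusted p-value 4.8e-05). *Dgkb*, a diacylglycerol kinase, fell by 1.34 on the log2 scale (adjusted p = 0.000160). *Plcb4*, a phospholipase C, was the 1 that rose, by 0.45, while both *Plcb1* transcripts fell, by 0.39 and 0.85. The *Plcb1* transcript that fell by 0.85 (SE 0.29, limma adjusted p-value 0.0435) was low, at 74 to 309 normalized counts. It did not reach 10 RPM in every mouse.

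Of 25 G protein subunit transcripts tested from 23 genes, 4 were higher and 5 lower, with a median of −0.05. The share passing was close to the 35.9% over all transcripts tested. *Gnai1*, an inhibitory α subunit, was at 2892, 2964, 3077 and 2908 normalized counts in bigenic and 5576, 5053, 5536 and 4998 in nontransgenic mice. It was far below the nontransgenic range (log2 fold change −0.84, limma adjusted p-value 4.0e-05), whereas its paralogs *Gnai2* and *Gnai3* rose by 0.42 and 0.28. The *Gnai3* groups overlapped, and its limma adjusted p-value was 0.0496. *Gnb5* fell by 0.81 (adjusted p = 0.000321). The α subunit *Gnaq* was at −0.05 and its paralog *Gna11* rose by 0.45.

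Of 7 adenylyl cyclases tested, *Adcy1* was lower (−0.81, limma adjusted p-value 0.000225), *Adcy3* (0.63, adjusted p = 0.00608) and *Adcy9* (0.40) were higher, and the median was 0.05. Thus 3 of 7 passed, against 35.9% of all transcripts tested. Of 17 scaffold and desensitisation genes tested, 3 were lower and 1 was higher, with a median of 0.03. The share passing was smaller than over all transcripts tested. *Homer1* and *Homer2*, whose proteins tether group I glutamate receptors to their scaffold, fell by 0.66 and 0.59 (adjusted p = 0.00581 and 0.000720). *Elfn2*, a transsynaptic partner of group III receptors, rose by 0.58 (adjusted p = 0.0441). Its groups overlapped, with mouse C at 2484 and mouse H at 2631 normalized counts, and mouse B was highest at 4659.

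**Figure D4:**
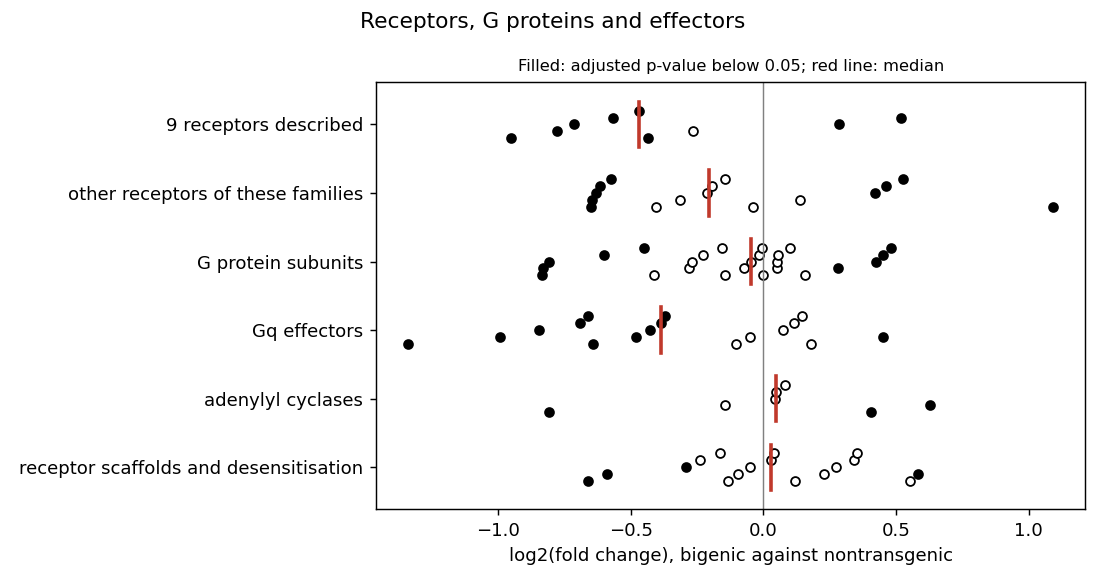
Log2 fold change (horizontal axis, bigenic against nontransgenic) of every tested transcript in 6 lists of receptors and their signalling partners, filled where the limma adjusted p-value was below 0.05, with a red line at each median. Medians run from −0.47 for the 9 receptors to 0.05 for the adenylyl cyclases. All lists were written with earlier results of these data known.

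Cell type markers were read beside these results and beside the 35.9% of all transcripts tested that passed. Neuronal markers were 3 higher, 3 lower and 4 not passing of 10 tested (median −0.02), with *Thy1* at 0.77. Interneuron markers were 2 lower of 7 (median −0.08), *Sst* at −0.46 and *Gad1* at −0.19. Astrocyte markers, relevant to *Grm3* and *Grm5*, were 4 lower of 8 (median −0.28), with *Gja1* at −0.43 and *Aqp4* (overlapping groups) at −0.63 beside −0.43 for *Grm3*. *Gfap* (0.04), *Aldoc* (−0.13), *Slc1a3* (−0.23) and *Gjb6* (−0.30) did not pass. The astrocyte sums were 119909 to 141704 normalized counts in bigenic and 149209 to 160535 in nontransgenic mice, with no overlap. Most of each sum was *Slc1a2* (−0.25), whose own groups overlapped, with mouse C at 101564 and mouse H at 101337. The part of these markers in the *Grm3* result was not tested. Microglial markers were 4 lower of 7 (median −0.36, *Cx3cr1* −0.56 and *P2ry12* −0.65) and endothelial markers 2 lower of 4 (median −0.20, *Slco1c1* −0.47 and *Flt1* −0.26). Oligodendrocyte markers were 1 higher of 7 (median −0.07, *Mobp* 0.60 with overlapping groups, and *Mag* 0.37 not passing). The 2 precursor markers, *Pdgfra* (−0.28) and *Cspg4* (−0.17), did not pass.

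For each receptor, the tested gene with the most similar profile was taken by the root mean square difference of centred log2 values over the 8 mice. These were *Vps52* for *Grm2* (0.034), *Snhg6* for *Grm3* (0.053), *Trim24* for *Grm5* (0.036), *Mff* for *Grm7* (0.041) and *Cyb561d1* for *Chrm1* (0.042). The others were *Zfp238* for *Chrm3* (0.098), *Arpc2* for *Htr2a* (0.067), *Klhl13* for *Htr2c* (0.256) and *Ptma* for *Adrb1* (0.129). Profiles within 0.2 numbered 2372 for *Grm2*, 118 for *Chrm3*, 41 for *Adrb1* and 0 for *Htr2c*, so the *Htr2c* profile was the least shared of the 9.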

How the data were processed

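Poly(A)+ RNA from 8 right cortices was sequenced in 50-base single-end reads on an Illumina Genome Analyzer II, from libraries that keep the strand. Per the methods and the submitters' processing notes, the authors trimmed adaptors (cutadapt), aligned to mm9 (Bowtie 0.12.7), kept uniquely mapping reads and merged exon counts into genes (bedtools). The deposited table holds a signal per transcript and mouse, made by the authors by scaling reads with a factor per mouse that is not given in the sources used here. These whole numbers are not raw counts. The second deposited table is the authors' DESeq2 comparison, with fold changes and p-values that were not used, only its identifiers and symbols.

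The 10588 transcripts that reached 10 RPM (relative to the total of a column) in 1 or more mice were kept, transformed as log2(value + 1), and compared with limma 3.58.1 (lmFit, eBayes with trend) in R 4.3.3 with Benjamini-Hochberg adjustment over all of them (threshold 0.05). Fold changes on this scale understate changes of low genes. The fit and the estimate of reads per mouse were tested on simulated data. Python 3.11.15, numpy 2.4.6, pandas 2.3.3 and matplotlib 3.10.9 were used. No intervals on single values were computed, since the steps did not give whole reads in every mouse. P-values cover the spread between 4 mice per group.

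Members and lists were chosen with earlier results of these data known. Named were all 9 members, the 2 best genes by adjusted p-value in each of 5 related and 9 marker lists, every tested choroid plexus marker, and the most similar gene for each member. Other genes were named after their values were seen. Some genes that the rule names are not reported here. Alternatives were pseudocounts of 10 and 0.1, other filters, scalings and thresholds, array weights and leaving out each mouse, and after seeing the data, leaving out mice A and B and limma voom on approximate reads.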

Additional observations from a re-analysis of the deposited data

Results flagged for a closer look

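In 4 of 82 groups of 4 mice checked (each gene named by rule, in each genotype), 1 mouse stood apart from the other 3 by Dixon's test, and chance gives about 1 in 20 groups. *Grm5* was at 4165 normalized counts in bigenic mouse B, against 5191 to 5265 in the other bigenic mice. *Chrm1* was at 5667 in the same mouse, against 3730 to 4045. *Homer2* was at 1752 in bigenic mouse A, against 2105 to 2169, and *Cx3cr1* at 881 in bigenic mouse C, against 802 to 809.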

How the results depend on the processing

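Over 17 alternatives the 9 receptors gave 153 values, of which 141 kept direction and side of the threshold, 10 lost the call, 2 gained it and 0 changed sign. *Grm3*, *Grm7*, *Chrm1*, *Chrm3*, *Htr2a* and *Adrb1* passed the threshold of 0.05 in each of these, and all of them but *Grm7* (0.0141) were also below 0.01 in the fit reported. The lost calls were of *Htr2c* and *Grm2* and the gained ones of *Grm5* (with array weights −0.19, adjusted p-value 0.00547, and without mouse B); the cause was not tested. Receptors called higher were 1 at an adjusted p-value below 0.01 and 1 to 2 with a mouse left out. All transcripts called were 3796, against 6455 with array weights and 2057 below 0.01. The scaffold list, 4 called, had 2 with no filter, 11 with array weights, 7 without mice A and B and 2 to 5 with 1 mouse left out (2 without D, E, F or G). The other receptors, 9 called, had 5 with 10 RPM required in every mouse, where fewer were tested, and 5 to 10 with 1 mouse left out (5 without F). Higher calls were 57.1% of all calls, 52.1% after quantile normalization and 59.9% after rescaling. No paired analysis was possible because the deposited columns carry no replicate number, so the fit with a replicate block was not run. Depth limits precision most in mouse B, which had the fewest reads. Its flagged values of *Grm5* and *Chrm1* still rested on an estimated 2014 and 2740 reads. With array weights, mouse B had the lowest weight, 0.084, followed by 0.461 in mouse A, and mouse D had the highest, 3.059. Why mouse B departed from the other bigenic mice was not tested.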
